A study of Mus musculus with 16 samples.

Results

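The sodium pump subunits and regulators described here are 5 mouse genes, Atp1a4 (an alpha subunit), Atp1b1 and Atp1b3 (beta subunits), and Fxyd1 and Fxyd5 (small regulatory proteins of the FXYD family). They were chosen by symbol, through the RefSeq accession that the array files give for each probe, and the brightest probe stands for a gene. They are 5 of 21154 genes with a named probe, and all 5 passed the filter on dim probes, as did 14065 genes in all.

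The study measured gene expression in ventricles of 16 female mice, each on its own one-colour Agilent array, with 4 mice per group. The groups were 2-week lactating Npr1-/- (knockout), 2-week lactating Npr1+/+ (wild-type), nulliparous Npr1-/- and nulliparous Npr1+/+ mice, where nulliparous means never having given birth. Npr1 encodes guanylyl cyclase A, the receptor of the atrial and B-type natriuretic peptides. The sources used here do not give the strain, the age or the extent of the Npr1 deletion, and the RNA is of whole ventricular tissue, not of a sorted cell type.

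The sodium pump (Na,K-ATPase) spends ATP to carry sodium out of the cell and potassium in. Its alpha subunit binds ATP, the ions and cardiac glycosides, its beta subunit is a glycoprotein needed for folding and delivery to the membrane, and FXYD proteins that cross the membrane once adjust its ion affinity and rate. In heart muscle the gradient it maintains drives the sodium-calcium exchanger, so that pump activity bears on the strength of contraction, and phospholemman, the product of Fxyd1, restrains the pump until it is phosphorylated.

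The promoters of the 3 members that changed with lactation in at least 1 genotype are shown, as the 250 bases upstream of the RefSeq start on GRCm38.p6, 5′ to 3′ on the gene's strand. All 3 genes lie on the minus strand, Atp1a4 at chr1:172258425-172258674, Atp1b1 at chr1:164458356-164458605 and Atp1b3 at chr9:96364432-96364681. Capitals mark matches, on either strand, to a GC box, a CCAAT box, a TATA box or a hormone response core, none of which overlapped another. The letters searched were GGGCGG for the GC box, those of its name for the CCAAT box, TATAAA for the TATA box, and TGTTCT for the core of elements bound by steroid hormone receptors.
Atp1a4: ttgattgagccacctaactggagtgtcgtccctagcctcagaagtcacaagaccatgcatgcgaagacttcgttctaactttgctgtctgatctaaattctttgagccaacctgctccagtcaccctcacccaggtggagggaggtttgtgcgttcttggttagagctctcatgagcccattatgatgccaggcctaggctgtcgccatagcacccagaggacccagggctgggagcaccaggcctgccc
Atp1b1: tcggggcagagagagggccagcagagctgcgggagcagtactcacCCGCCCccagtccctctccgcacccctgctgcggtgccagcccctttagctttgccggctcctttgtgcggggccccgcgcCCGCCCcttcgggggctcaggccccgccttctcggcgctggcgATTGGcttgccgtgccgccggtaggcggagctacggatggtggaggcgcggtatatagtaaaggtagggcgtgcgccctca
Atp1b3: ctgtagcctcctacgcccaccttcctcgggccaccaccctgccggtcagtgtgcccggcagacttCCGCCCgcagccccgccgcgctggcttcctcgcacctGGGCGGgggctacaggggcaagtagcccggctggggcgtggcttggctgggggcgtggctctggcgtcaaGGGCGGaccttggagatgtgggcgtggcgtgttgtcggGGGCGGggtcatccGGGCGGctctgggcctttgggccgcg
The Atp1b1 window held 2 GC boxes and 1 CCAAT box, and that of Atp1b3 held 5 GC boxes. No match was found in the windows of Atp1a4, Fxyd1 and Fxyd5, nor in the window of a second Atp1b3 start. Among 32851 RefSeq promoters of the same length, 32.74% held a GC box, 33.85% a CCAAT box, 12.37% a TATA box and 16.08% the hormone response core. The 2 beta subunit windows were 70.4% (Atp1b1) and 73.6% (Atp1b3) G or C, the Atp1a4, Fxyd1 and Fxyd5 windows 54.8%, 57.2% and 55.6%, and the median promoter 52.4%. A match describes the letters and is no evidence that a factor binds.

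Levels are log2 values of the processed signal, scaled so that 0 is the 75th percentile of each array, and the levels of different probes do not rank the genes they stand for. The 75th percentile signal was 278 to 347 on the lactating arrays and 165 to 221 on the nulliparous ones, except for nulliparous knockout replicate 4 with 284. That array also stood apart on the first principal component (53.7% of the variance), at 14.55, where the lactating arrays lay at 27.67 to 42.01 and the other 7 nulliparous arrays at -46.91 to -39.33. The members' lactation changes in knockouts, nulliparous genotype differences and interactions are given with and without it. Correlations are given only with it, and probe ratios without it only within ranges over arrays left out. The arrays lay on 2 slides with 2 of each group on each, and each group kept 1 column of the slides, so that column and group cannot be told apart. The Npr1 probe was well above background on 9 of 16 arrays, at -3.94 ± 0.27 in lactating knockout, -3.96 ± 0.50 in lactating wild-type, -3.91 ± 0.18 in nulliparous knockout and -4.11 ± 0.36 in nulliparous wild-type ventricles (SD, n = 4 each). Whether it lies in the deleted part of the gene is not stated, so it does not check the genotype labels. All 8 cardiomyocyte markers were well above background on all arrays.

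Lactation came with higher Atp1b3 in both genotypes, higher Atp1b1 in wild-type ventricles and lower Atp1a4 in knockout ventricles, whereas no member passed the test between genotypes in either state. In knockout ventricles 2 of 5 members passed an adjusted p of 0.05 in limma's moderated test between lactating and nulliparous mice, Atp1b3 higher and Atp1a4 lower, where 44.1% of all genes tested did (25.5% higher, 18.6% lower). In wild-type ventricles 2 of 5 passed, Atp1b1 and Atp1b3, both higher, where 50.3% of all genes did (31.8% higher, 18.5% lower). The members' shares lie near these backgrounds. The median change over the members was 0.15 in knockout and 0.25 in wild-type ventricles on the log2 scale, beside 0.06 and 0.10 over all genes.

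Between knockout and wild-type ventricles, 0 of 5 members passed in lactating mice, where 0.199% of all genes did, and 0 of 5 in nulliparous mice, where 0.0995% did. At an unadjusted p under 0.05 in limma the count was 0 in both states. The share of all genes at that threshold was not counted, here or in the interaction. The difference between the genotypes' lactation changes (the interaction) passed for 0 of 5 members, where 0.0924% of all genes passed, and 1 member, Fxyd1, had an unadjusted p under 0.05. Without nulliparous knockout replicate 4 the knockout minus wild-type difference in nulliparous mice was 1.07 for Atp1a4, 0.08 for Atp1b1, -0.10 for Atp1b3, 0.18 for Fxyd1 and 0.39 for Fxyd5, and the interaction was -2.42, -0.16, 0.15, -0.28 and -0.21 in the same order of genes. None of these passed, with adjusted p from 0.434 to 0.898. Centring each array on its median instead of its 75th percentile added 0.18 to the median lactation change of all genes in either genotype. With that centring 79.2% of the called genes were higher in lactating knockout ventricles in place of 57.9%, and 80.3% in place of 63.2% in wild-type ventricles. Relative to the median of all genes, the lactation change in knockout and in wild-type ventricles was -4.00 and -1.72 for Atp1a4, 0.19 and 0.27 for Atp1b1, 0.36 and 0.31 for Atp1b3, -0.11 and 0.09 for Fxyd1, and 0.09 and 0.14 for Fxyd5.

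**Figure D1:**
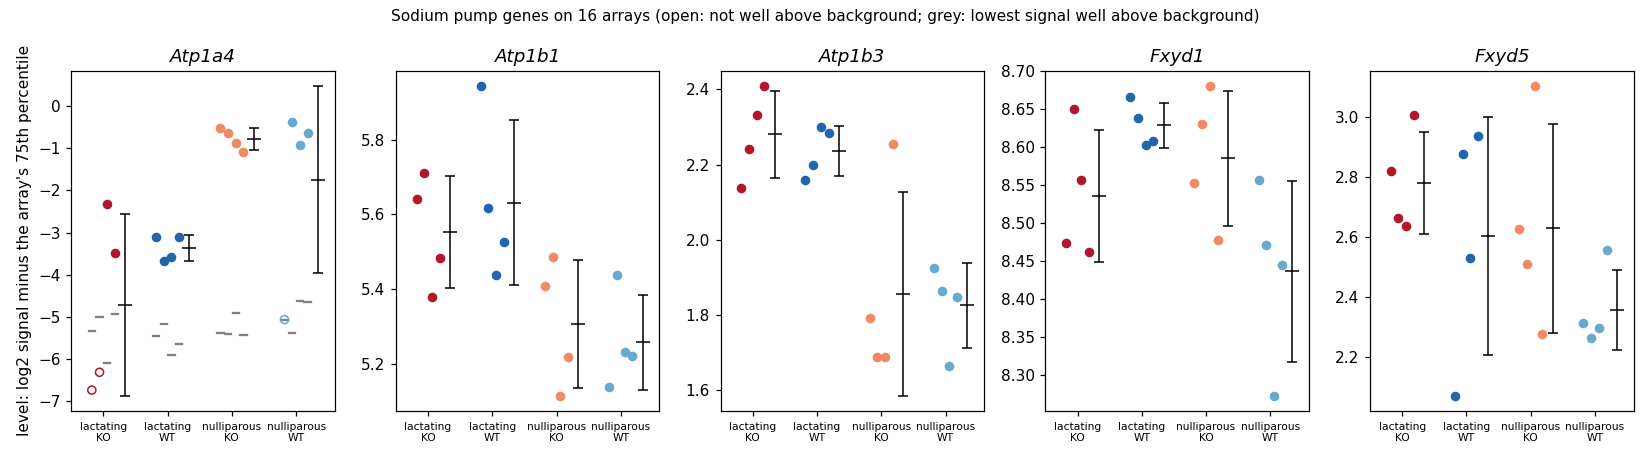
Level of each member on the 16 arrays (log2 scale, 0 at the 75th percentile of an array), with its own vertical scale per gene. Points are arrays, the bar beside each group is its mean ± SD (n = 4), open points are not well above background, and grey ticks in the Atp1a4 panel give the lowest level well above background on that array; Atp1b3 is higher on every lactating array than on 7 of the 8 nulliparous ones.

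Atp1a4 encodes the alpha isoform known from the sperm flagellum, and it was lower in lactating than in nulliparous knockout ventricles. Its level was -6.74, -6.32, -2.32 and -3.50 in lactating knockout ventricles and -3.09, -3.67, -3.59 and -3.11 in lactating wild-type ventricles. In nulliparous ventricles it was -0.53, -0.63, -0.87 and -1.10 in knockouts and -5.07, -0.38, -0.93 and -0.63 in wild-types. The probe was well above background on 2 of 4 lactating knockout arrays, replicates 3 and 4, on all 4 lactating wild-type and all 4 nulliparous knockout arrays, and on 3 of 4 nulliparous wild-type arrays, all but replicate 1. Every lactating knockout array was below every nulliparous knockout array, while in wild-types the dim nulliparous replicate 1 lay below all lactating wild-type arrays. The lowest level that counted as well above background was -6.10 to -4.63 across the arrays, so the values of the 3 dim arrays are bounded by noise.

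The Atp1a4 level averaged -4.72 ± 2.15 in lactating knockout and -3.37 ± 0.31 in lactating wild-type ventricles, against -0.78 ± 0.26 in nulliparous knockout and -1.75 ± 2.22 in nulliparous wild-type ventricles (SD, n = 4 each). In knockouts it fell by 3.94 ± 1.00 on the log2 scale (SE, 95% interval -6.08 to -1.79, limma adjusted p = 0.00661). The change was -4.04 without nulliparous knockout replicate 4, -5.95 on slide 1 (adjusted p = 0.015) and -1.92 on slide 2 (adjusted p = 0.33), and -1.61 with the normexp background correction (adjusted p = 0.000826). In wild-types the difference was -1.62 ± 1.00 (95% interval -3.76 to 0.53, adjusted p = 0.196). It passed without nulliparous wild-type replicate 1 (-2.72, adjusted p = 0.0137) and with the normexp correction (-1.14, adjusted p = 0.00497), and on slide 2 it was -2.57 (adjusted p = 0.0544). The nulliparous knockout mean was highest, followed by nulliparous wild-type, lactating wild-type and lactating knockout, and the ranges of neighbours in that order overlapped. The top place rests on nulliparous wild-type replicate 1, since without it the nulliparous knockout minus wild-type difference was -0.14, and the lowest mean includes 2 arrays not well above background. The knockout minus wild-type difference was -1.35 in lactating mice (adjusted p = 0.782) and 0.97 in nulliparous mice (adjusted p = 0.786), and the interaction was -2.32 ± 1.42 (95% interval -5.36 to 0.72, adjusted p = 0.821).

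A second Atp1a4 probe gave levels of -6.57, -6.20, -2.79 and -3.98 in lactating knockout and -3.52, -3.76, -4.01 and -3.65 in lactating wild-type ventricles, against -0.79, -0.87, -0.86 and -1.12 in nulliparous knockout and -6.19, -0.46, -0.94 and -0.69 in nulliparous wild-type ventricles. It was well above background on 1 of 4 lactating knockout arrays, replicate 3, on all 4 lactating wild-type and all 4 nulliparous knockout arrays, and on 3 of 4 nulliparous wild-type arrays. It was low on the same 3 arrays as the first probe, lactating knockout replicates 1 and 2 and nulliparous wild-type replicate 1. Across the 16 arrays the 2 probes correlated at r = 0.99 (0.98 with group means taken off), and among 55078 other probes the second probe ranked first in likeness to the first. The points share arrays, group means and scaling, so no test is given. What other transcripts the 2 probes could bind was not checked, and their likeness does not settle it.

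Of the 6 male germ cell markers, Tnp2, Ldhc and Odf1 were not well above background on any array. Only 2 were tested, Prm1 and Prm2. Both fell with lactation in knockouts, where 44.1% of all genes passed. Neither passed in wild-types, where 50.3% did, and their median change there was 0.13. The summed level of the 6 markers (the sum of signals divided by the 75th percentile) was 0.21 to 0.47 in lactating knockout and 0.48 to 0.98 in lactating wild-type ventricles. It was 0.26 to 0.86 in nulliparous knockout and 0.53 to 0.86 in nulliparous wild-type ventricles. The 0.26 was that of nulliparous knockout replicate 4, and the other 3 arrays of its group had 0.49 to 0.86. The part of these markers in the Atp1a4 values was not tested.

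**Figure D2:**
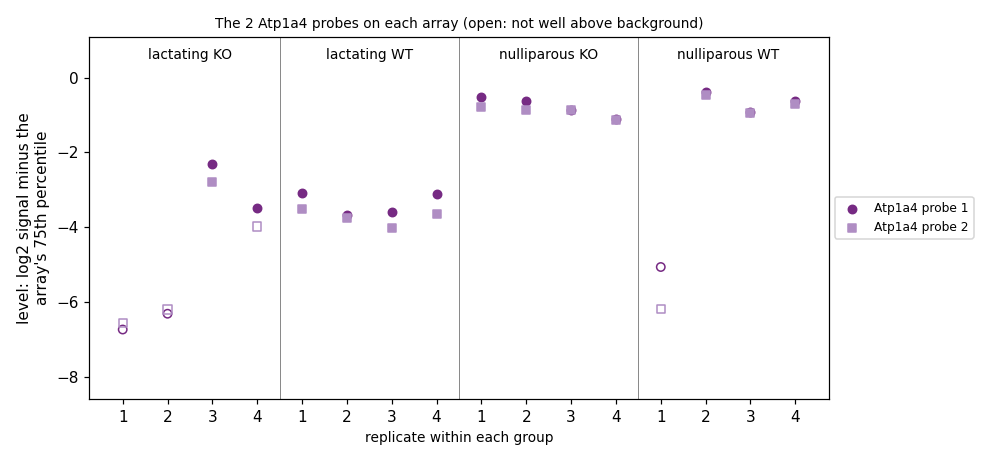
Levels of both Atp1a4 probes on each array (log2 scale, 0 at the 75th percentile of an array), with replicates 1 to 4 of each group from left to right. Filled points are well above background and open points are not; both probes are low on lactating knockout replicates 1 and 2 and on nulliparous wild-type replicate 1.

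Atp1b1 encodes the main beta subunit of heart and kidney, and it rose with lactation in wild-type ventricles. Its level was 5.64, 5.71, 5.38 and 5.48 in lactating knockout and 5.94, 5.62, 5.44 and 5.53 in lactating wild-type ventricles. In nulliparous ventricles it was 5.41, 5.49, 5.11 and 5.22 in knockouts and 5.14, 5.44, 5.23 and 5.22 in wild-types. In wild-types the groups touched without crossing, since lactating replicate 3 and nulliparous replicate 2 were both at 5.44, and in knockouts they overlapped.

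The wild-type change in Atp1b1 was 0.37 ± 0.12 on the log2 scale (SE, 1.30-fold, limma adjusted p = 0.0196), with means of 5.63 ± 0.22 in lactating and 5.26 ± 0.13 in nulliparous ventricles (SD, n = 4 each). Leaving out 1 array lost the call, at 0.33 (adjusted p = 0.0558) for nulliparous wild-type replicate 1 and at 0.27 (adjusted p = 0.0666) for replicate 1 of the lactating wild-types. Quantile normalization lost it too (0.22, adjusted p = 0.0998), and the change was 0.49 on slide 1 (adjusted p = 0.043) and 0.26 on slide 2 (adjusted p = 0.248). In knockouts the means were 5.55 ± 0.15 in lactating and 5.31 ± 0.17 in nulliparous ventricles, a difference of 0.25 ± 0.12 (95% interval -0.01 to 0.51, adjusted p = 0.113), and 0.22 without nulliparous knockout replicate 4 (adjusted p = 0.182). The knockout difference passed with the normexp correction (0.38, adjusted p = 0.00917), with median centring (0.43, adjusted p = 0.0172) and with the slide as a block (0.25, adjusted p = 0.0417). The means ran from lactating wild-type through lactating knockout and nulliparous knockout to nulliparous wild-type, and the ranges of neighbours overlapped. Between genotypes the difference was -0.08 in lactating (95% interval -0.34 to 0.18) and 0.05 in nulliparous mice (95% interval -0.21 to 0.31), and the interaction was -0.13 ± 0.17 (adjusted p = 0.922).

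Atp1b3, a beta subunit found in many tissues, was the member that rose with lactation in both genotypes. Its level was 2.14, 2.24, 2.33 and 2.41 in lactating knockout and 2.16, 2.20, 2.30 and 2.28 in lactating wild-type ventricles. In nulliparous ventricles it was 1.79, 1.69, 1.69 and 2.26 in knockouts and 1.93, 1.86, 1.66 and 1.85 in wild-types. All 8 lactating arrays lay above all nulliparous arrays except nulliparous knockout replicate 4, the array that stands apart.

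In knockouts Atp1b3 averaged 2.28 ± 0.12 in lactating and 1.86 ± 0.27 in nulliparous ventricles, a rise of 0.42 ± 0.12 on the log2 scale (SE, 1.34-fold, limma adjusted p = 0.00962). Without nulliparous knockout replicate 4 the rise was 0.56 (adjusted p = 8.77e-05). In wild-types it averaged 2.24 ± 0.07 in lactating and 1.83 ± 0.11 in nulliparous ventricles, a rise of 0.41 ± 0.12 (1.33-fold, adjusted p = 0.00936). Slide 1 alone gave 0.45 in knockouts (adjusted p = 0.00989) and 0.28 in wild-types (adjusted p = 0.0473), and slide 2 alone gave 0.40 (adjusted p = 0.377) and 0.54 (adjusted p = 0.146). Lactating knockout and lactating wild-type means were the upper pair and the nulliparous means the lower pair, and within a pair the genotypes differed by 0.04 (95% interval -0.20 to 0.29) and 0.03 (95% interval -0.22 to 0.28), the second -0.10 without nulliparous knockout replicate 4. The interaction was 0.01 ± 0.16 (95% interval -0.34 to 0.37, adjusted p = 0.992).

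**Figure D3:**
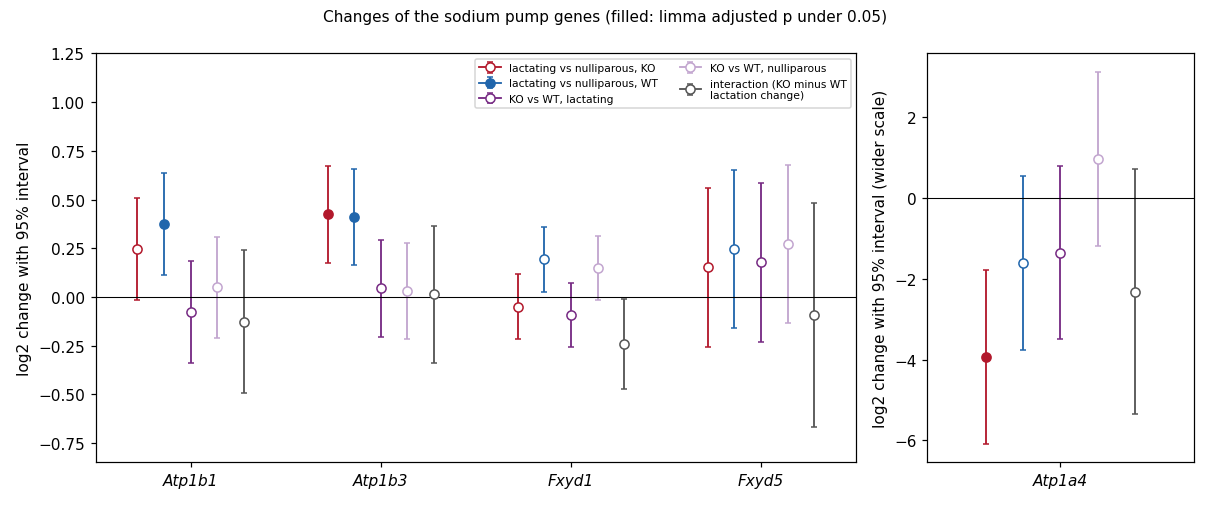
Log2 change of each member in the 5 comparisons with its 95% interval, the Atp1a4 panel on a wider scale. Filled points passed an adjusted p of 0.05 in limma; these are Atp1b3 with lactation in both genotypes, Atp1b1 with lactation in wild-types and Atp1a4 with lactation in knockouts.

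Fxyd1 encodes phospholemman, the main FXYD protein of heart muscle and a target of protein kinases A and C. Its level was 8.47, 8.65, 8.56 and 8.46 in lactating knockout and 8.67, 8.64, 8.60 and 8.61 in lactating wild-type ventricles. In nulliparous ventricles it was 8.55, 8.63, 8.68 and 8.48 in knockouts and 8.56, 8.47, 8.27 and 8.44 in wild-types. Lactating wild-type arrays all lay above the nulliparous wild-type arrays, whereas the knockout groups overlapped.

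The lactating wild-type mean of Fxyd1 was 8.63 ± 0.03 against 8.44 ± 0.12 in nulliparous wild-types (SD, n = 4 each), a difference of 0.19 ± 0.08 on the log2 scale (SE, 95% interval 0.03 to 0.36) that missed the threshold at a limma adjusted p of 0.0501. It passed with 7 of the other settings tried on all arrays, among them median centring (0.37, adjusted p = 0.00202) and the normexp correction (0.27, adjusted p = 0.00685), and also without nulliparous wild-type replicate 1 (0.23, adjusted p = 0.0332), without nulliparous knockout replicate 3 (adjusted p = 0.0461) or without nulliparous knockout replicate 4 (adjusted p = 0.034). In knockouts the means were 8.54 ± 0.09 in lactating and 8.59 ± 0.09 in nulliparous ventricles, a difference of -0.05 ± 0.08 (95% interval -0.21 to 0.12, adjusted p = 0.626) whose sign turned with normexp (0.05), quantile normalization (0.05) and median centring (0.13), and which was -0.09 without nulliparous knockout replicate 4. The means ran from lactating wild-type through nulliparous knockout and lactating knockout to nulliparous wild-type, with overlapping ranges between neighbours. Knockout minus wild-type was -0.09 in lactating (adjusted p = 0.822) and 0.15 in nulliparous mice (adjusted p = 0.603). The interaction of -0.24 ± 0.11 (95% interval -0.47 to -0.01) had an unadjusted p of 0.0428 and an adjusted p of 0.756, and so did not pass.

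Fxyd5 encodes dysadherin, a FXYD protein that also bears on cell adhesion, and none of its comparisons passed the test. Its level was 2.82, 2.66, 2.64 and 3.00 in lactating knockout and 2.07, 2.87, 2.53 and 2.93 in lactating wild-type ventricles. In nulliparous ventricles it was 2.63, 2.51, 3.10 and 2.28 in knockouts and 2.31, 2.26, 2.30 and 2.56 in wild-types. The groups overlapped in both genotypes, and the spread within the lactating wild-type and nulliparous knockout groups was the widest of the 4.

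Fxyd5 averaged 2.78 ± 0.17 in lactating knockout, 2.60 ± 0.40 in lactating wild-type, 2.63 ± 0.35 in nulliparous knockout and 2.36 ± 0.13 in nulliparous wild-type ventricles (SD, n = 4 each), and the ranges of neighbours in the order of these means overlapped. Its lactation difference was 0.15 ± 0.19 on the log2 scale in knockouts (SE, 95% interval -0.26 to 0.56, limma adjusted p = 0.541) and 0.25 ± 0.19 in wild-types (95% interval -0.16 to 0.65, adjusted p = 0.301), and without nulliparous knockout replicate 4 that in knockouts was 0.03 (adjusted p = 0.896). The wild-type difference passed with median centring (0.43, adjusted p = 0.046) and with array weights (0.40, adjusted p = 0.0262). Knockout minus wild-type was 0.18 in lactating (adjusted p = 0.887) and 0.27 in nulliparous mice (adjusted p = 0.686), and the interaction was -0.09 ± 0.27 (adjusted p = 0.961). Fxyd5 and Fxyd1 are near neighbours on chromosome 7, with Fxyd7 and 2 other annotated entries between them.

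In ventricle RNA, fewer cells of a type and less RNA per cell cannot be told apart. Markers said to rise or fall passed with lactation, as 44.1% of all genes did in knockouts and 50.3% in wild-types. Alongside the lactation changes, all 7 macrophage markers rose in both genotypes, with a summed level of 54.9 to 65.6 in lactating knockout and 47.8 to 55.1 in lactating wild-type ventricles, against 22.3 to 44.1 in nulliparous knockout and 24.9 to 29.6 in nulliparous wild-type ventricles. Of the 8 cardiomyocyte markers, 6 fell and 2 rose with lactation in knockouts, and 3 fell and 2 rose in wild-types. Their summed level was 5996 to 6826 in lactating knockout and 6953 to 7487 in lactating wild-type ventricles, against 7320 to 9850 in nulliparous knockout and 7651 to 9165 in nulliparous wild-type ventricles. The skeletal muscle list had summed levels of 266 to 463 in lactating knockout and 177 to 273 in lactating wild-type ventricles, against 66.1 to 122 in nulliparous knockout and 67.2 to 77.9 in nulliparous wild-type ventricles, with Acta1 and Ckm higher in both genotypes. Its Myh1 and Myh4 were not well above background on any array, and its Myh2 was so only in nulliparous knockouts. The list's name is thus no evidence of skeletal muscle cells. Schwann cell and neuron markers had summed levels of 117 to 204 in lactating knockout and 151 to 178 in lactating wild-type ventricles, against 188 to 641 in nulliparous knockout and 431 to 458 in nulliparous wild-type ventricles, and 3 of the 5 tested fell in both genotypes. On nulliparous knockout replicate 4 the summed level was 44.1 for macrophage, 7320 for cardiomyocyte, 122 for skeletal muscle and 188 for Schwann cell and neuron markers, and on the other 3 arrays of its group it was 22.3 to 29.8, 8800 to 9850, 66.1 to 88.8 and 425 to 641.

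Of the other marker lists, atrial cardiomyocyte markers fell for 3 of 4 tested in knockouts and 2 of 4 in wild-types, and mesothelial markers rose for 2 of 3 and 3 of 3. Fibroblast markers rose for 4 of 6 in knockouts and, in wild-types, rose for 3 and fell for 1. Their summed level was 313 to 394 in lactating and 331 to 366 in nulliparous knockouts. In wild-types it was 317 to 368 and 329 to 390. Endothelial markers rose for 3 of 7 and fell for 1 in knockouts, and rose for 2 and fell for 1 in wild-types. Their summed level was lower in lactating mice on average, at 175 to 217 in lactating and 204 to 280 in nulliparous knockouts. In wild-types the endothelial sum was 138 to 190 and 199 to 259. Smooth muscle and pericyte markers rose for 1 of 6 and fell for 3 in both genotypes. Red cell markers rose for 3 of 4 in knockouts and 2 of 4 in wild-types, adipocyte markers fell for 2 of 4 in knockouts and rose for 1 of 4 in wild-types, and among 4 lymphocyte markers 1 rose in both genotypes and 1 fell in wild-types. Beside these counts, 44.1% of all genes passed with lactation in knockouts and 50.3% in wild-types. Between genotypes, only adipocyte markers passed. In lactating mice 3 of 4 (Adipoq, Cidec and Plin1) were lower in knockouts, where 0.199% of all genes passed. Cidec was also lower in nulliparous knockouts (0.0995% of all genes passed) and passed in the interaction (0.0924%). Cidec was not well above background on any lactating knockout array. The part of the marker shifts in the changes of Atp1b1, Atp1b3 and Atp1a4 was not tested.

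Whether the beta subunits or the FXYD genes changed unequally was tested on the log2 ratio of their probes within each array, in 8 exact two-sided permutation tests over 70 splits, where the smallest p is 0.0286. A single test at that p would have an adjusted p of 0.229, and 5 of the 8 would have to reach it to pass, so no single ratio could pass. The adjusted p lay between 0.823 and 0.914. The size of a ratio depends on both probes, and the comparison is between groups. The ratio of Atp1b1 over Atp1b3 was 3.27 ± 0.25 in lactating knockout, 3.40 ± 0.28 in lactating wild-type, 3.45 ± 0.36 in nulliparous knockout and 3.43 ± 0.17 in nulliparous wild-type ventricles (SD, n = 4 each). That of Fxyd1 over Fxyd5 was 5.76 ± 0.25 in lactating knockout, 6.03 ± 0.42 in lactating wild-type, 5.96 ± 0.28 in nulliparous knockout and 6.08 ± 0.17 in nulliparous wild-type ventricles.

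For each member the 3 genes with the most similar level across the 16 arrays were listed, among 12126 or 12127 genes well above background on all arrays. Atp1a4 was most like Cacna1c (r = 0.85), Sbk3 (r = 0.84) and Slc25a42 (r = 0.83), and these values dropped to 0.61 to 0.65 with group means taken off. Atp1b1 was most like Mgst3, Hk1 and Gpd1 (r = 0.89 each, 0.78 to 0.83 with group means taken off), and Atp1b3 was most like Ctnnb1, Tram1 and Fbxo45 (r = 0.97 each, 0.90 to 0.91 with group means taken off). Fxyd1 was most like Timm44 (r = 0.89), Ndufa9 (r = 0.81) and Edf1 (r = 0.80), and Fxyd5 was most like Gngt2 (r = 0.91), Adam15 (r = 0.84) and Capg (r = 0.84). With group means taken off, the values were 0.68 to 0.80 for Fxyd1 and 0.86 to 0.90 for Fxyd5. These are descriptions over arrays that share their scaling and their groups. They include nulliparous knockout replicate 4, and taking group means off leaves that array's distance from its group in place. There Atp1b3 was at 2.26, against 1.69 to 1.79 on the other arrays of the group. The Atp1a4 correlations also include arrays on which its probe was not well above background. These lay at -6.74 and -6.32 in lactating knockouts and at -5.07 in nulliparous wild-types. How far the correlations rest on any of these arrays was not tested.

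Among the members themselves the similarity was weaker. Atp1b1 and Atp1b3 had r = 0.45 over the 16 arrays and r = -0.36 with group means taken off. Atp1a4 ran against Atp1b3 at r = -0.57 and against Atp1b1 at r = -0.47, and with group means taken off these were 0.03 and -0.05. The arrays with Atp1a4 not well above background enter these values too.

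Of the 12 genes of the pump family listed here (pump subunits and FXYD proteins, the 5 members included), 8 passed the filter on dim probes, and Atp1b4, Fxyd3, Fxyd4 and Fxyd7 did not. In knockouts 3 of the 8 rose with lactation (Atp1b2, Atp1b3 and Fxyd2), 1 fell (Atp1a4) and 4 did not pass, where 44.1% of all genes passed, and the median change was 0.25 beside 0.06 over all genes. In wild-types 2 rose (Atp1b1 and Atp1b3), none fell and 6 did not pass, where 50.3% of all genes passed, and the median was 0.22 beside 0.10. None of the 8 passed in limma between genotypes or in the interaction, where 0.199% (lactating), 0.0995% (nulliparous) and 0.0924% (interaction) of all genes did. At an unadjusted p under 0.05 there were 0 in lactating mice, 0 in nulliparous mice and 1 in the interaction (Fxyd1). For all genes the share at this threshold was not counted.

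Atp1b2, the beta subunit known from glia and also found in muscle, rose by 0.30 ± 0.10 on the log2 scale in knockouts (SE, limma adjusted p = 0.0298), and by 0.39 without nulliparous knockout replicate 4 (adjusted p = 0.00371). The Atp1b2 call was lost with quantile normalization (adjusted p = 0.0528), without the filter, with only the groups compared, on slide 2 alone, and without lactating knockout replicate 1, 3 or 4 or nulliparous knockout replicate 1 or 2 (adjusted p 0.0644 to 0.106 without each). Fxyd2, the gamma subunit best known from kidney, rose by 0.70 ± 0.25 in knockouts (limma adjusted p = 0.0324) and differed by 0.54 ± 0.25 in wild-types (adjusted p = 0.0847). Its nulliparous knockout level was 2.13 on replicate 4 and 0.91 to 0.99 on the other arrays, and without that array the change was 0.99 in knockouts (adjusted p = 0.00039) and 0.54 in wild-types (adjusted p = 0.0141). The knockout call for Fxyd2 was lost without the filter, with only the groups compared, on slide 2 alone, and without lactating knockout replicate 1, 3 or 4 or nulliparous knockout replicate 1, 2 or 3 (adjusted p 0.0659 to 0.0981 without each). Fxyd6 did not pass in either genotype.

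**Figure D4:**
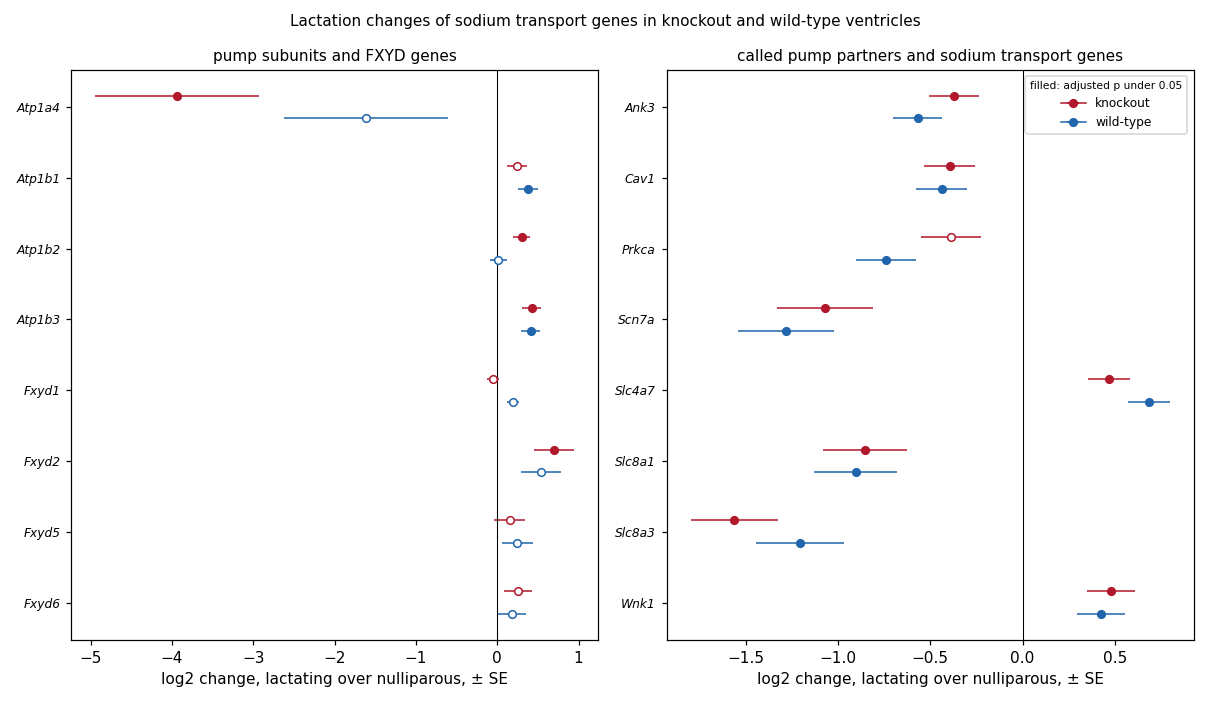
Log2 change with lactation (lactating over nulliparous, ± SE) of the pump family, left, and of the pump partners and sodium transport genes that passed in at least 1 genotype, right, in knockout ventricles (red, upper of each pair) and wild-type ventricles (blue, lower). Filled points passed an adjusted p of 0.05 in limma; Slc8a1 and Slc8a3 fell in both genotypes.

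Of 28 pump partners and sodium transport genes, 22 were tested. With lactation 2 rose and 5 fell in knockouts, where 44.1% of all genes passed (median -0.06, beside 0.06 over all genes), and 2 rose and 6 fell in wild-types, where 50.3% passed (median -0.02, beside 0.10). None passed in limma between genotypes, where 0.199% of all genes did in lactating and 0.0995% in nulliparous mice. An unadjusted p under 0.05 was found for 3 in lactating and 3 in nulliparous mice. The share of all genes at that threshold was not counted. The genes that fell in both genotypes were Slc8a1 and Slc8a3, which encode sodium-calcium exchangers that use the gradient set by the pump, Scn7a, an atypical sodium channel, Ank3, which encodes the membrane anchor ankyrin G, and Cav1, which encodes the caveolar protein caveolin 1. The knockout calls for Ank3 and Cav1 were lost in 12 and 10 of the alternatives, 6 and 5 of them with 1 array left out. The wild-type call for Cav1 was lost in 5, among them median centring (-0.26, limma adjusted p = 0.124). In 3 of these 5, 1 array was left out (adjusted p 0.0502 to 0.0561). Slc4a7 (a sodium bicarbonate cotransporter) and Wnk1 (a kinase that controls sodium and chloride cotransport) rose in both.

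Slc8a1, the exchanger of heart muscle, averaged 1.06 ± 0.12 in lactating knockout and 1.29 ± 0.20 in lactating wild-type ventricles, against 1.91 ± 0.56 in nulliparous knockout and 2.20 ± 0.32 in nulliparous wild-type ventricles (SD, n = 4 each). It fell by 0.85 ± 0.23 in knockouts (limma adjusted p = 0.00799) and by 0.90 ± 0.23 in wild-types (adjusted p = 0.00444). Slc8a3 fell by 1.56 ± 0.24 in knockouts (adjusted p = 0.000615) and by 1.21 ± 0.24 in wild-types (adjusted p = 0.001). Scn7a fell by 1.07 ± 0.26 in knockouts (adjusted p = 0.00493) and by 1.28 ± 0.26 in wild-types (adjusted p = 0.00119). Without nulliparous knockout replicate 4 the knockout change was -1.13 for Slc8a1 (adjusted p = 4.96e-05), -1.89 for Slc8a3 (adjusted p = 1.45e-07) and -1.39 for Scn7a (adjusted p = 2.61e-05).

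The calls for Slc4a7 and Wnk1 rest on the brightest of 2 probes: with the mean of the probes the Slc4a7 change was 0.02 in knockouts and 0.09 in wild-types, and that of Wnk1 was 0.04 and -0.09. Prkca, which encodes protein kinase C alpha, a kinase that phosphorylates phospholemman, fell in wild-types by 0.74 ± 0.16 (limma adjusted p = 0.00202). In knockouts its difference was -0.39 ± 0.16 (limma adjusted p = 0.0667), which did not pass. With the mean of its probes the Prkca change was -0.05 in wild-types (adjusted p = 0.738). The difference between genotypes for these genes did not pass in the interaction.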

How the data were processed

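Total RNA (200 ng per array, Cy3) from 16 mouse ventricles was hybridised to one-colour Agilent arrays. Per the labels and the submitters' processing notes, the authors extracted spots with Agilent Feature Extraction 10.7.3.1, and the deposited processed signals are linear intensity values. The authors' deposited table holds log2 values. They match log2 processed signal less the 75th percentile, less each probe's mean over nulliparous wild-type arrays, up to a small offset per array. The median difference per array was -0.019 to 0.026, as checked on 24451 probes well above background on all arrays. The authors' table was used as an alternative.

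Each array had 62976 spots, which gave 55681 non-control probes. Outlier spots were left out, spots of 1 probe were averaged, and no probe was saturated. Of 28167 probes with a RefSeq transcript accession, 27793 were named through the RefSeq gene table, and the brightest probe stood for a gene. The log2 processed signals, scaled to the 75th percentile of each array, were fitted over all 4 groups with limma 3.58.1 in R 4.3.3 (lmFit and eBayes, 12 residual degrees of freedom), for the 14065 genes whose probe was well above background throughout 1 or more groups. Benjamini-Hochberg adjustment ran over all of these genes, and the threshold was an adjusted p of 0.05. Intervals are 95%. The number of arrays limits the precision. The scripts were tested on simulated data.

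The labels name independent mice and no pairing. Same-numbered arrays did not all deviate together (r from -0.05 to 0.18 after group means were taken off), so replicate number was a block only in an alternative. The other alternatives were background correction with normexp (offset 50, on the median spot signal), quantile and median normalization, filters, probe averaging, fitting only the groups compared, trended and robust variance, array weights, slide as a block, each slide alone, and leaving out each array. The 2 probe ratios were tested by exact permutation.

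The text names Npr1, the 5 members, genes called in 2 lists (pump family, pump partners and sodium transport), and for each member the 3 genes with the highest correlation. Some genes of these 2 lists are not reported here, and the lists' counts and medians leave them out. The comparison of the 2 Atp1a4 probes was chosen after their values were seen. The members, lists and 13 cell type marker lists were chosen with earlier results of these data known.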

Additional observations from a re-analysis of the deposited data

Results flagged for a closer look

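Among 32 sets of 4 arrays examined for 1 array far from the others, 3 had one, where chance gives about 1 in 20. The Atp1a4 level of nulliparous wild-type replicate 1 was -5.07, not well above background, where the other 3 arrays of the group had -0.93 to -0.38. The second Atp1a4 probe was also low on that array, at -6.19 against -0.94 to -0.46 on the others of the group. The Fxyd5 level of nulliparous wild-type replicate 4 was 2.56, where the other 3 had 2.26 to 2.31. The Fxyd2 level of nulliparous knockout replicate 4 was 2.13, where the other 3 had 0.91 to 0.99, and this array stands apart from its group over all genes.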

How the results depend on the processing

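Replicate number as a block left 2 members called with lactation in either genotype and 4 and 2 of the pump family in knockouts and wild-types, and changed no member's call. With lactation in knockouts, 2 members were called; the count was 3 with normexp, median centring or slide as a block, 1 with the filter on all 16 arrays (Atp1a4 is no longer tested) and 0 on slide 2 alone, where limma called no gene in this comparison and 1 member had an unadjusted p under 0.05, and it stayed at 2 when each array was left out. In wild-types 2 were called; the count was 4 with normexp, median centring or array weights, 1 with quantile normalization, 0 on slide 2 alone (2 at an unadjusted p under 0.05) and 1 to 3 when each array was left out. For the pump family in knockouts (4 called) it was 2 without the filter and with only the groups compared, 0 on slide 2 and 2 to 4 when each array was left out, with 2 without lactating knockout replicate 1, 3 or 4 or nulliparous knockout replicate 1 or 2. In wild-types (2 called) it was 5 with median centring or array weights, 4 with normexp, 1 with quantile normalization, 0 on slide 2 and 1 to 4 when each array was left out, with 1 without lactating wild-type replicate 1 and 4 without nulliparous knockout replicate 4. For slide 2 alone, the share of all genes at an unadjusted p under 0.05 was not counted. The genotype and interaction counts of members and family were 0 under every alternative run. Atp1b3 was called with lactation in both genotypes under each alternative except slide 2 alone. Over all genes, 6205 and 7071 were called with lactation in knockouts and wild-types, against 0 and 86 on slide 2 alone; 28, 14 and 13 in lactating and nulliparous genotype comparisons and the interaction became 211, 254 and 77 with array weights, and ranged down to 4, 5 and 1 under the other alternatives.

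Differences that did not pass changed sign in places. On slide 2 alone the Atp1a4 genotype difference was 0.44 in lactating and -0.21 in nulliparous mice and its interaction 0.65; for Atp1b1 the nulliparous genotype difference was -0.061 and the interaction 0.0091, and for Atp1b3 the interaction was -0.14. Quantile normalization gave nulliparous genotype differences of -0.035 for Atp1b1 and -0.0012 for Atp1b3. For Atp1b3 this difference was -0.11 with array weights and -0.16 on slide 1, and its interaction -0.0051 in the authors' table. The Fxyd1 lactation difference in knockouts was 0.051 with normexp, 0.052 with quantile normalization and 0.13 with median centring. When each array was left out, the genotype difference in nulliparous mice ranged from -0.14 to 1.42 for Atp1a4, -0.011 to 0.11 for Atp1b1 and -0.10 to 0.086 for Atp1b3, that in lactating mice from -0.14 to 0.026 for Atp1b1, and the interaction from -0.042 to 0.15 for Atp1b3 and -0.27 to 0.064 for Fxyd5.

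The ratio of Atp1b1 over Atp1b3 changed with lactation in wild-types by 0.21 on slide 1 alone and by -0.17 to 0.049 when each array was left out, and between genotypes by -0.28 in nulliparous mice on slide 2, -0.10 to 0.18 in nulliparous and -0.21 to 0.0071 in lactating mice when each array was left out. That of Fxyd1 over Fxyd5 changed by -0.24 to 0.065 with lactation in wild-types and by -0.20 to 0.0039 between genotypes in nulliparous mice. With lactation in knockouts, leaving out each array gave -0.34 to -0.062 for Atp1b1 over Atp1b3 and -0.33 to -0.10 for Fxyd1 over Fxyd5. The cause of these shifts was not tested. Each slide alone leaves 2 arrays a group, and the interaction has no fit with only the groups compared. With normexp the Atp1a4 change in knockouts was -1.61 in place of -3.94.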
